A study of Mus musculus with 12 samples.

Results

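Acute phase proteins are plasma proteins whose output by the liver changes after injury or infection. This account covers 10 of their genes, Saa1, Saa2, Saa3, Saa4, Orm1, Orm2, Hp, Lcn2, Apcs and Crp, in the liver of mice that lacked Phgdh in hepatocytes. The genes were chosen by name from the acute phase family and not by a measured value, though earlier results of these data were known. All 10 were measured, out of 16915 genes tested. Phgdh encodes the first enzyme of serine synthesis from a glycolytic intermediate.

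Livers of 12 male C57BL/6 mice were profiled on single-colour microarrays, one array per mouse. Both genotypes were homozygous for the floxed Phgdh allele (Phgdh flox/flox), were littermates, were 30 weeks old and ate chow that held 20% casein. The 6 LKO mice also carried Cre under the albumin promoter, which deletes Phgdh in hepatocytes alone, so the other liver cells of LKO mice kept the gene, and the 6 Floxed mice carried no Cre. RNA came from whole liver, in which fewer cells of a type and less RNA per cell cannot be told apart. The protocols name no inflammatory stimulus.

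The acute phase response is driven mainly by interleukin 6 and interleukin 1. Interleukin 6 acts on hepatocytes through its receptor Il6ra and gp130 (Il6st) to activate the transcription factor Stat3, while interleukin 1 and tumour necrosis factor act through NF-kB, and both routes work together with C/EBP factors at acute phase promoters. Saa1 and Saa2 encode the inducible serum amyloid A proteins carried on high-density lipoprotein, Saa3 a serum amyloid A made largely outside hepatocytes, and Saa4 a form made constitutively. Orm1 and Orm2 encode orosomucoids, which bind drugs and lipids in plasma. Hp encodes haptoglobin, which captures free haemoglobin, and Lcn2 encodes lipocalin 2, which binds bacterial siderophores and is also made by neutrophils. Apcs encodes serum amyloid P component, the main inducible pentraxin of the mouse, and Crp encodes C-reactive protein, a pentraxin that responds weakly in this species.

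The upstream sequences of 4 serum amyloid and lipocalin genes are shown. Floxed mouse 1 was the highest of the 12 mice in Saa1, Saa2 and Lcn2 and the lowest in Saa3. It was also the highest in Hp, for which no upstream entry was given. RefSeq (GRCm38.p6) gave an entry for 8 of the 10 genes, and each sequence below is the 250 bases before the start site, read 5′ to 3′ on the strand of the gene. Capitals mark matches to a C/EBP motif (TTGNNCAA) or an NF-kB motif (GGNNTTTCC or its reverse complement). Saa1 lay on the minus strand at chr7:46742981-46743230, Saa2 on the plus strand at chr7:46751583-46751832, Saa3 on the minus strand at chr7:46715677-46715926 and Lcn2 on the minus strand at chr2:32387740-32387989.
Saa1: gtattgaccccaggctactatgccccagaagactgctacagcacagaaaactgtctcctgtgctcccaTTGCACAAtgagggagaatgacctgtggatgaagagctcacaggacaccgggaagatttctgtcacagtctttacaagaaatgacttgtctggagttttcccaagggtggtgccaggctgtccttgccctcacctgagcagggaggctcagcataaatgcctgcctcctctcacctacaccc
Saa2: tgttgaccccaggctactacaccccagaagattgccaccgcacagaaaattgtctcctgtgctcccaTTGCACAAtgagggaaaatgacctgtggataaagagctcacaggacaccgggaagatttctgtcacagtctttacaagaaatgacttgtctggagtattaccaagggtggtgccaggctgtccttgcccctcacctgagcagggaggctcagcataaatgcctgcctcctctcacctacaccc
Saa3: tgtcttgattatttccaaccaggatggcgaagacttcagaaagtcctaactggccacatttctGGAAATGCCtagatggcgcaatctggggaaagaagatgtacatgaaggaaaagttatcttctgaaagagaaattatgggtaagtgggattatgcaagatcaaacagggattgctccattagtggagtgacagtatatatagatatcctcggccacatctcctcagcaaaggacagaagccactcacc
Lcn2: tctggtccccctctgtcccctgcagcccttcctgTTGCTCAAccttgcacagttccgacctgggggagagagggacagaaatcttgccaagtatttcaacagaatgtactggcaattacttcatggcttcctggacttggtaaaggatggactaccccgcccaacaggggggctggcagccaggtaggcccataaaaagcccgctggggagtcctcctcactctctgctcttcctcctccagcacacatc

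The Saa1 and Saa2 sequences were identical at 238 of 251 alignment columns (94.8%), and their start sites lay 8853 bases apart on opposite strands. Saa1 and Saa2 shared the C/EBP match TTGCACAA, whose first base stood 182 bases before the start of Saa1 and 183 before that of Saa2. Lcn2 held TTGCTCAA 216 bases before its start. Saa3 held no C/EBP match in this window but an NF-kB match, GGAAATGCC, 187 bases before its start. Saa4 and Orm2, whose sequences are not shown, also held a C/EBP match, and Floxed mouse 1 ranked 4 of the 12 mice in each. Whether a motif bears on the values of this mouse was not tested.

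Over the 8 genes with an entry, the C/EBP motif was matched in 5 (Saa1, Saa2, Saa4, Orm2 and Lcn2), against 5.65% of 32841 mouse promoter windows of the same length. Saa1 and Saa2, near-identical over this window, are not independent cases in that count. The Stat motif (TTCNNNGAA) was matched in Apcs alone and in 7.02% of all windows. The type II interleukin 6 element (CTGGGA or its reverse complement) was matched in Apcs and Crp and in 27% of all windows, and the NF-kB motif in Saa3 alone and in 4.93% of all windows. Both strands were searched and no match of one motif overlapped one of another in these genes. A match is a string of letters and was not tested as a binding site.

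Arrays were hybridised on 3 slides of 4 arrays. Slide 1 carried only Floxed animals (1 to 4) and slide 3 only LKO animals (3 to 6), while Floxed 5 and 6 and LKO 1 and 2 were together on slide 2, so that slide and genotype were largely confounded and only slide 2 compared them directly. Between 21614 and 24252 probes were well above background per array, and no spot was saturated. The array of LKO mouse 5 had the lowest 75th percentile of intensity, 239 against 258 to 473 on the others. Precision is limited by how many arrays there were. Each gene was read by one probe, and values are log2 intensities after quantile normalization, which compare mice within a gene and not one gene with another.

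The deleted gene was examined first. Phgdh ranged from 4.81 to 5.496 with a median of 5.17 in Floxed livers and from 4.23 to 5.30 with a median of 4.57 in LKO livers. It fell by 0.48 on the log2 scale (SE 0.18, limma p = 0.0179, adjusted p = 0.451, exact permutation p = 0.0346, n = 6 per genotype). LKO mice 1 and 2, on slide 2, at 5.07 and 5.30, lay within the Floxed range, whereas LKO mice 3 to 6 lay at 4.66 or below, and within slide 2 the difference was -0.055. The probe was dim, at the 8.3 percentile of intensity among tested genes, and was the only 1 of 2 Phgdh probes to pass the background filter. Whether it lies in the deleted exons was not determined, so it does not show how much Phgdh each mouse kept. By quantitative PCR and Western blotting the study found lower Phgdh mRNA and protein in LKO livers. Albumin (Alb) and the other 14 hepatocyte markers were all detected and none differed between genotypes at this threshold.

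The first comparison asked whether loss of hepatocyte Phgdh altered the level of acute phase mRNA. None of the 10 genes passed limma's unadjusted p of 0.05, a threshold that 8.35% of all tested genes passed (4.92% higher and 3.43% lower in LKO). Of the 10 genes, 6 had a higher mean in LKO livers and 4 a lower mean, against 48.8% of all genes with a positive difference. The mean differences lay between -0.20 for Saa4 and 0.16 for Lcn2 on the log2 scale, and the ranges of both genotypes overlapped for every one of the 10 genes (0.296% of all genes did not overlap). After Benjamini-Hochberg adjustment no gene of the 16915 passed, and the lowest adjusted p among the 10 was 0.730, for Crp.

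**Figure D1:**
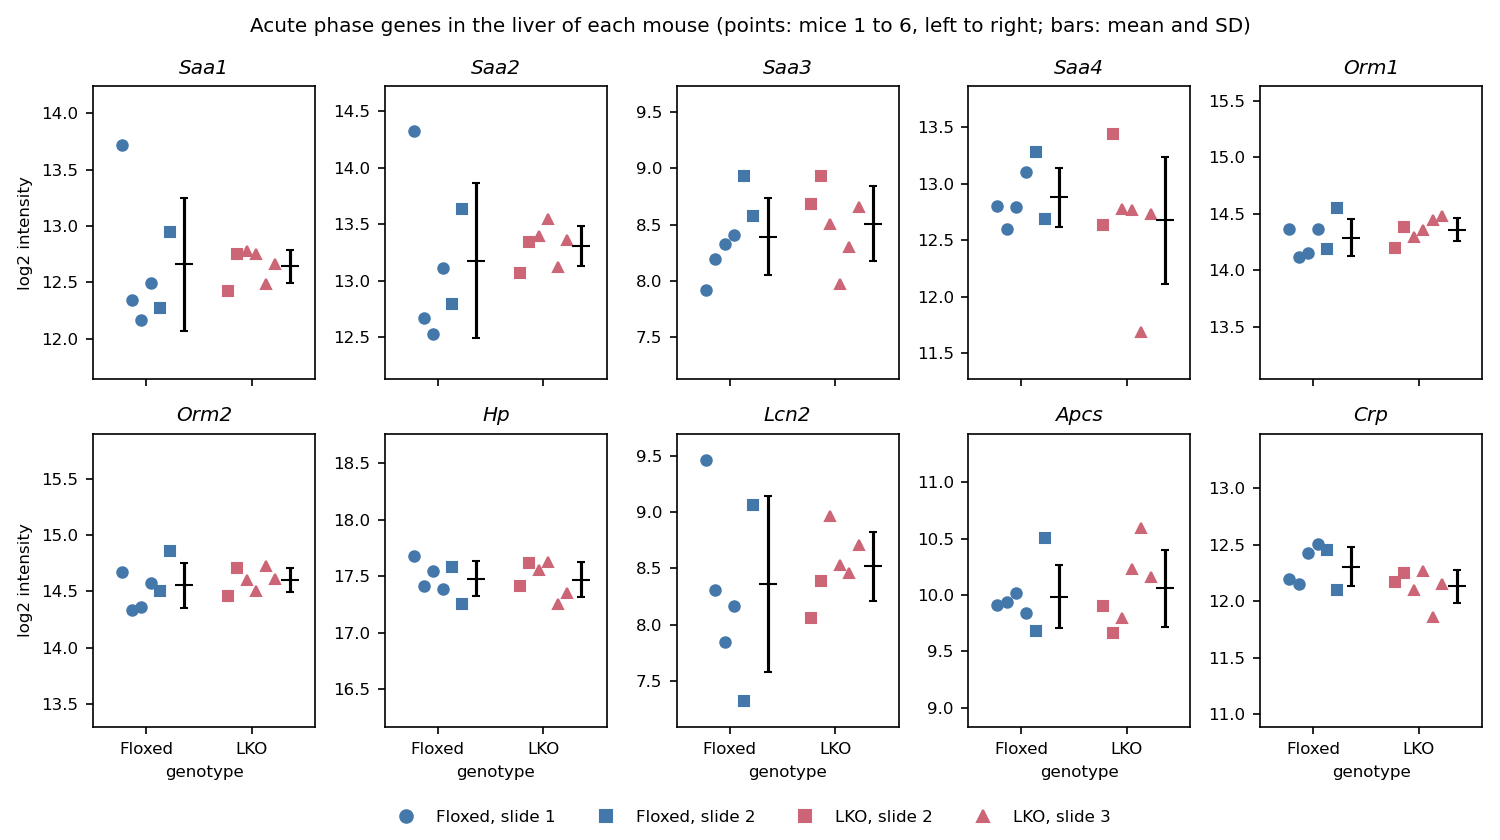
Log2 intensity of each acute phase gene (vertical axis, of equal height in log2 units in every panel) in the 6 Floxed and 6 LKO mice, with the shape of a point giving its slide and the bar the mean and SD of the genotype. Floxed mouse 1 stands highest in Saa1, Saa2, Hp and Lcn2, LKO mouse 5 stands lowest in Saa4, and the genotypes overlap in all 10 panels.

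The inducible serum amyloid genes differed far more among Floxed mice than between genotypes. Saa1 ran from 12.17 through a median of 12.42 to 13.72 in Floxed livers and from 12.43 through 12.70 to 12.78 in LKO livers. Its mean was 12.66 ± 0.59 (SD, n = 6) in Floxed and 12.64 ± 0.15 in LKO livers, a difference of -0.018 (SE 0.22, 95% interval -0.50 to 0.47, limma p = 0.939, adjusted p = 0.996, exact permutation p = 0.957). The LKO mice lay inside the range of the Floxed mice, and the high Floxed value came from mouse 1.

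Saa2 had the same form. It ran from 12.52 through 12.95 to 14.33 in Floxed livers and from 13.07 through 13.35 to 13.54 in LKO livers, and the difference was 0.13 (SE 0.26, interval -0.44 to 0.69, limma p = 0.632, adjusted p = 0.974, exact permutation p = 0.675). Floxed mouse 1 was again the highest of the 12 mice and Floxed mouse 3 the lowest, in both genes. Without Floxed mouse 1, the difference of Saa1 turned to 0.19 (SE 0.13, limma adjusted p = 0.848) and that of Saa2 grew to 0.36 (SE 0.18, limma adjusted p = 0.699) and neither passed the threshold. The Saa1 difference, close to 0, also turned positive without Floxed mouse 6, LKO mouse 1 or LKO mouse 5. Saa1 and Saa2 are near-identical paralogues, and whether each probe reads its own transcript alone was not tested.

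Saa3 and Saa4 did not share this pattern. Saa3 ran from 7.92 through 8.37 to 8.93 in Floxed livers and from 7.98 through 8.58 to 8.93 in LKO livers, with a difference of 0.11 (SE 0.18, interval -0.27 to 0.50, limma p = 0.535, adjusted p = 0.966, exact permutation p = 0.563). Floxed mouse 1, the highest in Saa1 and Saa2, was the lowest of all in Saa3. Saa4 ran from 12.60 through 12.80 to 13.29 in Floxed livers and from 11.69 through 12.75 to 13.44 in LKO livers, with a difference of -0.20 (SE 0.23, interval -0.70 to 0.29, limma p = 0.389, adjusted p = 0.946, exact permutation p = 0.504). Both extremes of Saa4 were LKO mice, mouse 5 at the bottom and mouse 2 at the top, and without LKO mouse 5 the difference shrank to -0.0074.

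The orosomucoid genes and haptoglobin varied little after quantile normalization. Orm1 ran from 14.11 through 14.28 to 14.55 in Floxed livers and from 14.20 through 14.37 to 14.48 in LKO livers, and Orm2 from 14.34 through 14.54 to 14.86 and from 14.46 through 14.60 to 14.72. Their differences were 0.070 (SE 0.088, interval -0.12 to 0.26, limma p = 0.441, exact permutation p = 0.379) and 0.047 (SE 0.096, interval -0.16 to 0.25, limma p = 0.631, exact permutation p = 0.608). In both genes Floxed mouse 6 was the highest and Floxed mouse 2 the lowest of the 12 mice, so the Floxed range enclosed the LKO range. Hp ran from 17.25 through 17.48 to 17.68 in Floxed livers and from 17.25 through 17.48 to 17.63 in LKO livers, and its difference was -0.0078 (SE 0.095, interval -0.21 to 0.20, limma p = 0.935, exact permutation p = 0.926). The intervals of these 3 genes were the narrowest of the 10.

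Lcn2 was the most variable of the 10 genes. It ran from 7.33 through 8.24 to 9.46 in Floxed livers and from 8.06 through 8.49 to 8.97 in LKO livers, with means of 8.36 ± 0.78 and 8.52 ± 0.31 (SD, n = 6). The difference of 0.16 had an SE of 0.31 and an interval from -0.51 to 0.82 (limma p = 0.619, adjusted p = 0.972, exact permutation p = 0.656). The Floxed mice held both the highest value (mouse 1) and the lowest (mouse 5), and without Floxed mouse 1 the difference was 0.37 (limma adjusted p = 0.846) and without Floxed mouse 5 it was -0.051. Of 14 neutrophil markers, 6 were tested and none passed the threshold. Their mean deviation from the 12-mouse mean ran from -0.14 to 0.33 in Floxed mice, with mouse 1 the highest, and from -0.56 to 0.16 in LKO mice. Mpo, Ngp, Cxcr2, Mmp8 and Mmp9 were well above background on none of the arrays. The part of neutrophils in the Lcn2 values was not tested.

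Of the pentraxin genes, Apcs ran from 9.68 through 9.92 to 10.50 in Floxed livers and from 9.67 through 10.03 to 10.59 in LKO livers, a difference of 0.074 (SE 0.17, interval -0.28 to 0.43, limma p = 0.662, exact permutation p = 0.675). Crp ran from 12.10 through 12.31 to 12.51 in Floxed livers and from 11.86 through 12.16 to 12.27 in LKO livers. Its means were 12.31 ± 0.18 and 12.13 ± 0.15, and its difference of -0.17 (SE 0.098, interval -0.38 to 0.038, limma p = 0.1004, adjusted p = 0.730, exact permutation p = 0.0952) had the smallest p of the 10 genes. Floxed mice 3, 4 and 5 lay above all the LKO mice in Crp, and the other Floxed mice lay among them. Within slide 2 the Crp difference was -0.066.

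Within slide 2, where 2 mice of each genotype shared a slide, 6 of the 10 genes were lower in LKO livers. The sign was opposite to that over all 12 mice for Saa2 (-0.0072), Saa4 (0.051), Orm1 (-0.077), Orm2 (-0.099), Hp (0.099) and Apcs (-0.31), and the same for Saa1 (-0.027), Saa3 (0.052), Lcn2 (0.030) and Crp. These are differences between 2 and 2 mice with standard errors larger than themselves, apart from that of Apcs (0.30). The LKO mice on slide 2 had Phgdh readings, from a dim probe, in the Floxed range. A change of sign therefore carries no test. Slide and genotype cannot be told apart for the rest of the mice in any of the 10 genes.

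**Figure D2:**
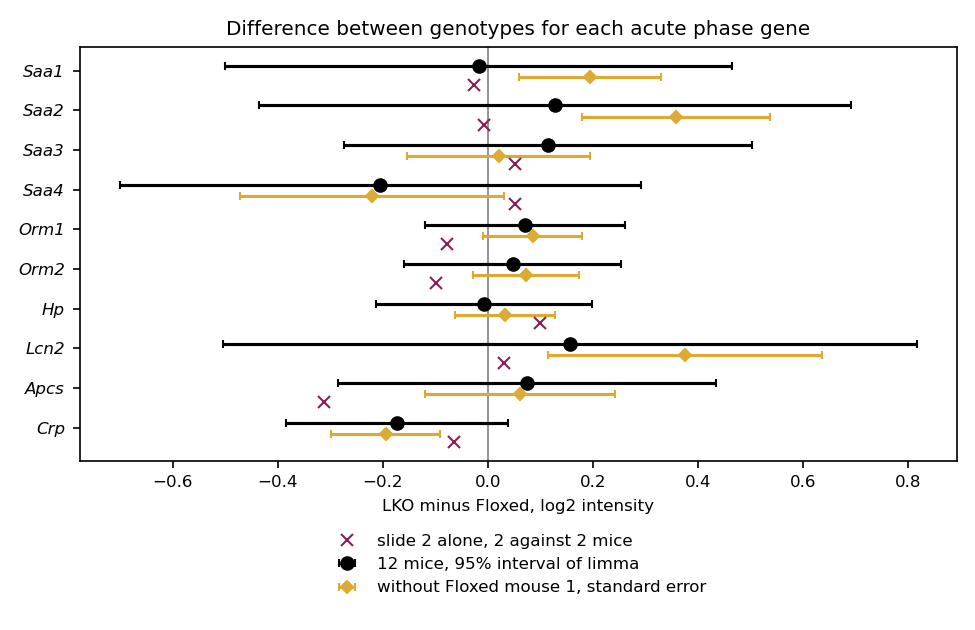
Difference between genotypes in log2 intensity (horizontal axis, LKO minus Floxed) for each gene, over 12 mice with limma's 95% interval (black), without Floxed mouse 1 with its standard error (yellow), and within slide 2 (crosses). Every interval over 12 mice includes 0, and leaving out Floxed mouse 1 moves Saa1, Saa2 and Lcn2 to 0.19, 0.36 and 0.37.

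The genes were then compared for how much they varied among mice of the same genotype. The pooled within-genotype SD was 0.59 for Lcn2, 0.50 for Saa2, 0.44 for Saa4 and 0.43 for Saa1, placing them at the 96.4, 93.7, 90.3 and 89.3 percentiles of the 16915 tested genes, whose median SD was 0.22. From the lowest to the highest of the 12 mice, Lcn2 spanned 4.37-fold, Saa2 3.49-fold, Saa4 3.38-fold and Saa1 2.93-fold. Saa1 spanned 1.72-fold and Saa2 2.16-fold without Floxed mouse 1, and Saa4 spanned 1.80-fold without LKO mouse 5. Saa3 (SD 0.34, 78.6 percentile) and Apcs (0.31, 73.7 percentile) spanned 2.01-fold and 1.90-fold. At the quiet end, Crp, Orm2, Hp and Orm1 had SDs of 0.16, 0.16, 0.15 and 0.14 and stood between the 19.6 and 28.1 percentiles. No test was made of this order, and how the brightness of a probe bears on its spread was not tested.

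In Saa1 and Saa2 most of the spread lay in Floxed mice, with SDs of 0.59 and 0.69 against 0.15 and 0.18 in LKO mice. Without Floxed mouse 1 the Floxed SDs were 0.31 and 0.44. In Saa4 the spread lay in LKO mice, with an SD of 0.56 against 0.26 in Floxed mice, and without LKO mouse 5 it was 0.33.

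**Figure D3:**
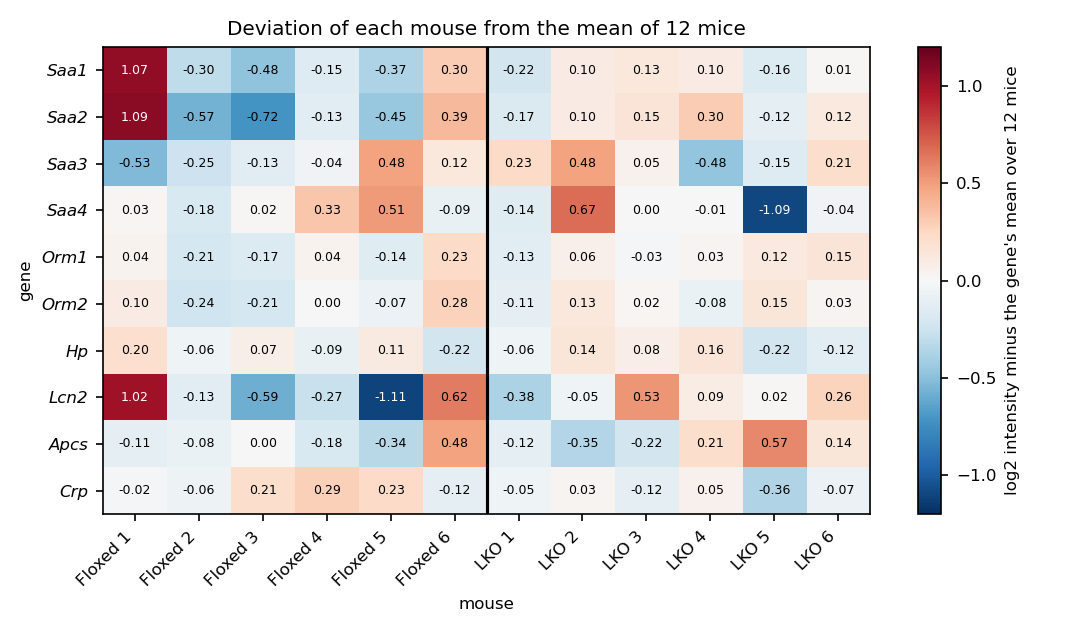
Deviation of each mouse (columns) from the 12-mouse mean of each gene (rows), in log2 intensity, with red for higher and blue for lower and the value printed in each cell. Floxed mouse 1 is above the mean by 1.07 in Saa1, 1.09 in Saa2 and 1.02 in Lcn2 and below it by 0.53 in Saa3, while LKO mouse 5 is below it by 1.09 in Saa4 and above it by 0.57 in Apcs.

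Whether the genes rose and fell together among mice was asked next, with the mean of each genotype removed so that the genotype could not create a relation. Over 12 mice and 45 pairs, 5 pairs passed a Benjamini-Hochberg adjusted p of 0.05 in a two-sided permutation test of 100000 shuffles within genotype, 9 had an unadjusted p under 0.05, and r was positive in 25. Saa1 and Saa2 were the closest pair (r = 0.98, rho = 0.96, permutation p = 0.00013, adjusted p = 0.00585). Saa1 also followed Lcn2 (r = 0.87, rho = 0.87, permutation p = 0.0015, adjusted p = 0.0225), and Saa2 with Lcn2 stood just outside the threshold (r = 0.84, rho = 0.84, permutation adjusted p = 0.0533).

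The orosomucoid pair formed a second group, with r = 0.90 and rho = 0.88 between Orm1 and Orm2 (permutation adjusted p = 0.0146). Orm1 and Orm2 are paralogues too, and reading of both by either probe was not tested. Saa4 followed Crp (r = 0.77, rho = 0.76, permutation adjusted p = 0.0303) and ran opposite to Apcs (r = -0.78, rho = -0.76, permutation adjusted p = 0.0409). For Saa1 with the other serum amyloid genes r was 0.037 with Saa4 and -0.40 with Saa3, and their permutation adjusted p-values were 0.916 and 0.462. Among the 6 mice of one genotype, r of Saa1 with Saa4 was -0.26 in Floxed and 0.63 in LKO mice. With Saa3 it was -0.56 in Floxed and -0.057 in LKO mice, and these values within a genotype carry no test.

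These relations were recomputed without the 2 mice farthest from the median of the first gene of a pair. Saa1 with Saa2 kept r = 0.95, Saa1 with Lcn2 0.83, Orm1 with Orm2 0.77 and Saa4 with Crp 0.75, whereas Saa4 with Apcs dropped to -0.53, and no pair passed the adjusted threshold in the remaining 10 mice. With the mean of each slide and genotype removed, which allows fewer arrangements, r was 0.99, 0.89, 0.91, 0.79 and -0.78 for the same 5 pairs, and none passed either. Without Floxed mouse 1, r was 0.96 for Saa1 with Saa2 (permutation adjusted p = 0.0288) and 0.82 for Saa1 with Lcn2 (permutation adjusted p = 0.0943). Without LKO mouse 5, r was 0.62 for Saa4 with Crp (permutation adjusted p = 0.290) and -0.62 for Saa4 with Apcs (permutation adjusted p = 0.304), so the adjusted calls of both pairs were lost with that mouse. Without Floxed mouse 1 each of these 2 pairs had a permutation adjusted p of 0.0548, with r of 0.78 and -0.79.

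**Figure D4:**
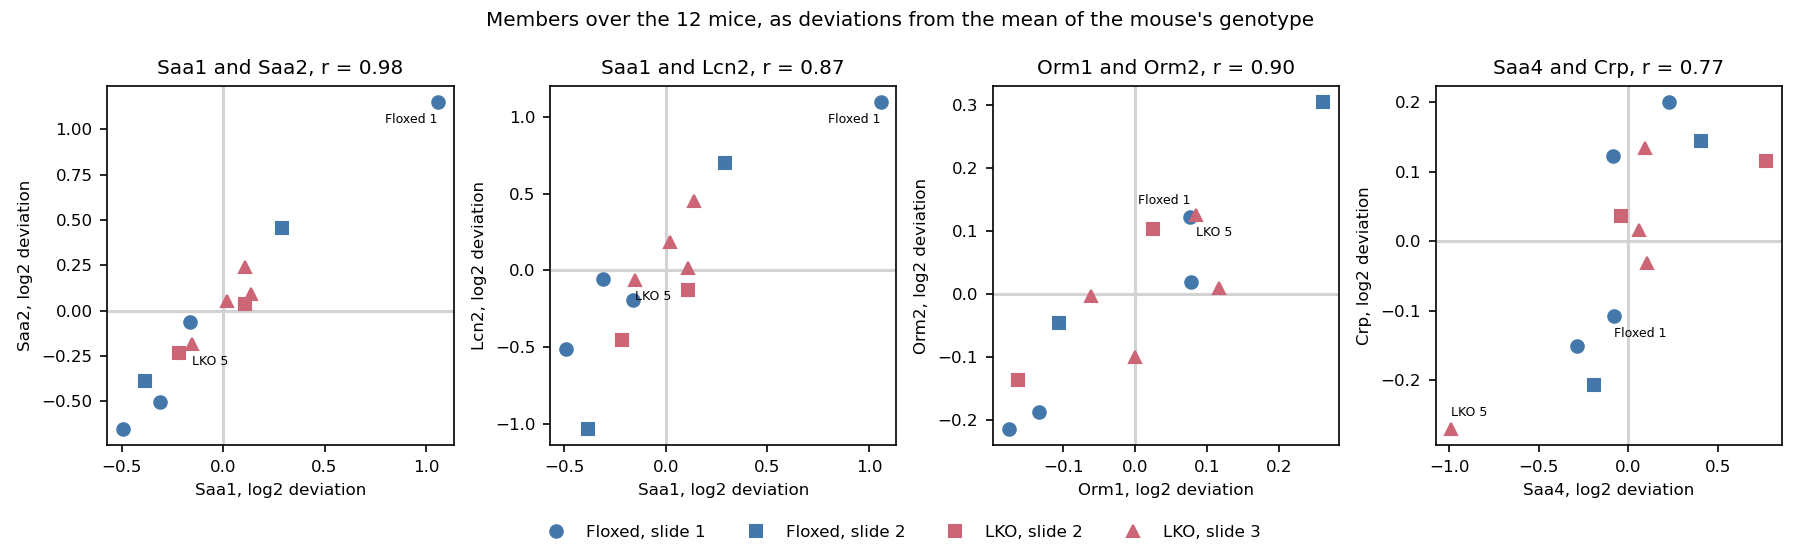
Pairs of acute phase genes over the 12 mice, each point a mouse as its log2 deviation from the mean of its genotype on both axes, with colour for genotype and shape for slide. Saa1 with Saa2 and Saa1 with Lcn2 run along a diagonal whose upper end is Floxed mouse 1, Orm1 with Orm2 has Floxed mouse 6 at its upper end, and the lower left of Saa4 with Crp is LKO mouse 5.

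The 5 genes outside the family with the highest r with the mean deviation of the 10 genes over the 12 mice, genotype means removed, were Lin7a (r = 0.93), Pitrm1 (0.90), Bloc1s6 (0.90), Nfkbid (0.86) and Itih4 (0.84). They were picked as the highest among tested genes with a symbol (12528 of 16915), the 10 genes left out, and carry no test. Itih4 encodes an inter-alpha-trypsin inhibitor heavy chain that is itself an acute phase protein, and Nfkbid encodes a nuclear inhibitor of NF-kB. Without Floxed mouse 1 their r ran from 0.72 for Itih4 to 0.89 for Lin7a. Between genotypes Nfkbid was higher in LKO livers by 0.35 (SE 0.13, limma p = 0.0161, adjusted p = 0.433, exact permutation p = 0.0238), and the other 4 did not pass the threshold.

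Other positive acute phase genes, those whose liver output rises in inflammation, were examined as a list of 30, of which 27 were tested. None passed the threshold, 5 had a higher and 21 a lower mean in LKO livers and 1 (Serpina1a) had the same value in all mice, and the median difference was -0.097 against -0.0035 over all genes. The smallest p-values belonged to Hpx, encoding the haem carrier hemopexin, at -0.18 (SE 0.090, limma p = 0.0743, exact permutation p = 0.0411), Fga, encoding a fibrinogen chain, at -0.36 (SE 0.20, limma p = 0.0881, exact permutation p = 0.128), and Mbl2, encoding a mannose-binding lectin, at 0.18 (SE 0.11, limma p = 0.111, exact permutation p = 0.117). Without Floxed mouse 1 the list had 8 higher and 18 lower and a median of -0.060. Within slide 2, 19 of the 27 were lower in LKO livers.

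Floxed mouse 1 alone held the highest value of the 12 mice in 13 of the 27 genes (48.1%), against 12.0% of all tested genes. Its mean deviation over the list was 0.38, against -0.21 to 0.15 in the other Floxed mice and -0.19 to 0.042 in LKO mice. LKO mouse 5 held the lowest value in 14 of the 27, against 17.0% of all tested genes.

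Negative acute phase genes, whose output falls in inflammation, numbered 15, all tested. They were divided into 8 higher and 6 lower in LKO livers and 1 (Apoa2) with the same value in all mice, with a median of 0.0037, and Apoa4, encoding an apolipoprotein of triglyceride-rich particles, passed the threshold. Apoa4 rose by 0.69, from 8.42 ± 0.57 to 9.11 ± 0.59 (SE 0.30, limma p = 0.0381, adjusted p = 0.564, exact permutation p = 0.0714), but did not pass without Floxed mouse 1, in which it lay 1.35 below the 12-mouse mean. Floxed mouse 1 held the lowest value in 5 of the 15 genes (33.3%), against 11.7% of all tested genes. It held the highest value in 3 of them (20%), against 12.0%, and its deviations ran from -1.35 in Apoa4 to 0.41 in Apoa1.

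The cytokines that start the response were next. Of 10 cytokine genes 3 were detected on all 12 arrays and none passed the threshold. Ctf1, encoding the gp130 ligand cardiotrophin 1, differed by 0.24 (SE 0.12, limma p = 0.0559, exact permutation p = 0.0628), Il22 by 0.25 (SE 0.15, limma p = 0.118, exact permutation p = 0.145) and Il1b by -0.061 (SE 0.35, limma p = 0.862, exact permutation p = 0.887). Il6 itself was well above background on 9 arrays, Il11 on 9, Lif on 6, Osm on 4, Tnf and Ifng on 1 and Il1a on none. When 6 arrays above background were enough, Il6 differed by 0.65 (SE 0.35, limma p = 0.0858, exact permutation p = 0.126), Lif by -0.86 (SE 0.31, limma p = 0.0156, adjusted p = 0.364, exact permutation p = 0.0411) and Il11 by -0.14 (SE 0.47, limma p = 0.769, exact permutation p = 0.926). Lif, the ligand of Lifr, thus passed the unadjusted threshold on values that were not above background on 6 of the arrays.

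Of 19 receptors and adaptors 17 were tested, 4 higher and 13 lower in LKO livers, with a median of -0.081. Tnfrsf1b, encoding the second receptor for tumour necrosis factor, fell by 0.35, from 5.99 ± 0.25 to 5.64 ± 0.13 (SE 0.12, limma p = 0.00995, adjusted p = 0.387, exact permutation p = 0.0216), and was lower by 0.29 within slide 2. Il6ra ran from 11.38 through 11.83 to 12.60 in Floxed livers and from 10.13 through 11.71 to 12.23 in LKO livers, a difference of -0.40 (SE 0.31, limma p = 0.220, exact permutation p = 0.307). LKO mouse 5 held the lowest Il6ra value and the lowest value in 10 of the 17 genes (58.8%), against 17.0% of all tested genes. Over all tested genes this mouse also held the highest value in 15.4%, and both shares were the largest of any mouse.

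Of 33 kinases, transcription factors and inhibitors 30 were tested, 10 higher and 20 lower, with a median of -0.042. Stat5a, a transcription factor of growth hormone signalling, rose by 0.37, from 8.56 ± 0.17 to 8.94 ± 0.27 (SE 0.13, limma p = 0.0118, adjusted p = 0.410, exact permutation p = 0.0152), and by 0.51 within slide 2. Stat3 ran from 11.82 through 12.02 to 13.18 in Floxed livers and from 11.69 through 11.88 to 12.16 in LKO livers, a difference of -0.29 (SE 0.20, limma p = 0.165, exact permutation p = 0.190). The highest Stat3 value belonged to Floxed mouse 1, as did the highest values of Cebpb and Cebpd. Over the list this mouse held the highest value in 5 of the 30 genes (16.7%), against 12.0% of all tested genes. Floxed mouse 4 and LKO mouse 2 each held the highest value in 6 of the 30.

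Socs3, the feedback inhibitor that Stat3 induces, ran from 8.02 through 9.60 to 10.33 in Floxed livers and from 8.39 through 8.59 to 9.13 in LKO livers, a difference of -0.64 (SE 0.35, limma p = 0.0938, adjusted p = 0.727, exact permutation p = 0.136). Floxed mice 1, 2, 4 and 5 lay above all the LKO mice, and Floxed mice 3 and 6 below all of them. Within slide 2 Socs3 differed by 0.025. The C/EBP factors Cebpb and Cebpd differed by -0.15 (SE 0.15, limma p = 0.344, exact permutation p = 0.390) and -0.37 (SE 0.21, limma p = 0.0978, exact permutation p = 0.134). In all, 3 of the 92 genes tested in these 5 lists passed the threshold (3.26%, against 8.35% of all genes), and 2 without Floxed mouse 1.

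**Figure D5:**
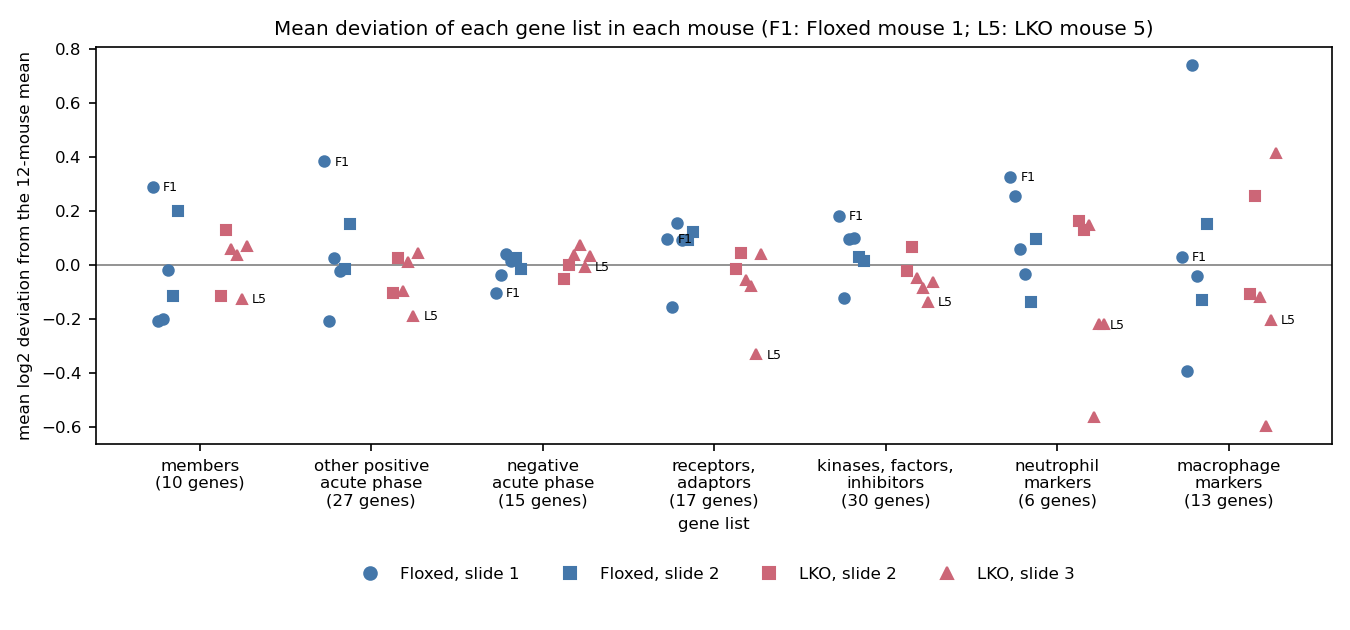
Mean log2 deviation from the 12-mouse mean over the tested genes of each list (horizontal axis) in each mouse, with colour for genotype and shape for slide. Floxed mouse 1 (F1) is the highest mouse for the 10 genes and for the other positive acute phase genes (0.38) and the lowest for the negative ones (-0.10), and LKO mouse 5 (L5) is the lowest for receptors and adaptors (-0.33).

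Markers of other cells were compared as well. No macrophage (13 tested), lymphocyte (9), adipocyte (5) or erythrocyte (6) marker passed the threshold. The macrophage list was lower in LKO livers for 12 of 13 genes, with a median of -0.10, but higher for 11 of 13 within slide 2, and its mean deviation ran from -0.39 to 0.74 in Floxed and from -0.60 to 0.41 in LKO mice. Of the endothelial and stellate markers (15 tested) Pecam1, an endothelial adhesion molecule, rose by 0.70 (SE 0.18, limma p = 0.0015, adjusted p = 0.273, exact permutation p = 0.00866), though by 0.042 within slide 2. No other marker of that list passed, and it had 9 higher and 6 lower in LKO livers, with a median of 0.054. The endothelial markers Kdr and Stab2 differed by 0.065 and 0.14, and Cdh5 and Lyve1 by -0.038 and -0.13. Of the pancreas markers (6 tested) Cel, a bile salt-stimulated lipase, rose by 0.54 (SE 0.13, limma p = 0.00145, adjusted p = 0.273, exact permutation p = 0.00649). No other pancreas marker passed, and that list had 5 higher and 1 lower, with a median of 0.16. The part of these cells in the acute phase values was not tested.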

How the data were processed

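Liver RNA of 12 mice (6 Floxed, 6 LKO) was hybridised to single-colour Agilent arrays. The deposited scanner files held the intensity of each spot as Agilent Feature Extraction wrote it, background-subtracted by the authors (version 10.7.1.1 in the file headers, 9.5.1.1 in the submitters' processing notes), with flags for outliers, saturation and signal well above background. The authors also deposited a table of processed values without a log, which gave the same log2 values within 0.1 for 99.98% of entries and served as an alternative.

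Processed signals were transformed to log2 and quantile normalized over the 12 arrays with limma 3.58.1 in R 4.3.3, after 1377 control spots were left out. Outlier spots (0.298%) were set missing after the normalization. Spots of a probe were averaged. Of 39429 probes, 20404 were well above background on all 12 arrays (in at least 0.5 of a probe's spots), and the brightest probe stood for a gene, giving 16915 genes. The methods' detection p was replaced by the scanner's flag. Genes were named through RefSeq accessions (26761 probes with a symbol).

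LKO and Floxed mice were compared with limma without covariates. Genes with an unadjusted p under 0.05 were called, as in the study's methods, and Benjamini-Hochberg adjusted p-values are printed beside it. Exact permutation tests were two-sided over the 924 arrangements of 6 against 6, the smallest possible p being 0.00216. Correlations used values minus the genotype mean, with numpy 2.4.6 and scipy 1.17.1. Quantile normalization makes the distribution of every array the same, and equal values of a gene on 2 arrays come from equal ranks. Steps that compute statistics over many genes were checked on simulated data.

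The 10 genes and all other lists were chosen with earlier results of these data known. Named genes were the 10 genes, Phgdh, every called gene of the other lists, otherwise the 3 genes with the smallest p of each acute phase list, 5 regulators (Stat3, Socs3, Il6ra, Cebpb and Cebpd) and the 5 genes most like the mean of the 10. Alb, the cytokines beyond Ctf1, Il22 and Il1b, the genes of equal value and the undetected neutrophil markers were named after their values were seen. The upstream sequences shown were of genes with an entry in which Floxed mouse 1 was highest or lowest, so that choice also followed the values. Alternatives were the scaling, background correction, filters, probe summary, thresholds, the methods' t-test, the slide, a replicate block and leaving out each mouse. Leaving out Floxed mouse 1 or LKO mouse 5 from the lists and correlations was chosen after seeing the data.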

Additional observations from a re-analysis of the deposited data

Results flagged for a closer look

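A mouse was set apart where its gap to the nearest mouse of its genotype, divided by the range of the 6 mice, passed Dixon's critical value. Over 58 groups tested, chance gives 2.9 such groups, and 4 were found. None of the 10 acute phase genes was among them. Stat3 in Floxed mouse 1 was 13.18, above 11.82 to 12.27 in the other Floxed mice. This was the brighter of 2 Stat3 probes that passed the background filter, and whether the other sets this mouse apart was not tested. The mean deviation of receptors and adaptors was -0.15 in Floxed mouse 2, below 0.092 to 0.15 in the other Floxed mice, and -0.33 in LKO mouse 5, below -0.076 to 0.042 in the other LKO mice. The mean deviation of pancreas acinar markers was 0.34 in LKO mouse 3, above -0.079 to 0.071 in the other LKO mice.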

How the results depend on the processing

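No acute phase gene of the 10 passed the threshold under any of 29 alternatives. The count of all genes called, 1413, became 2791 with no filter on dim probes, 0 at an adjusted p of 0.05, 88 when a log2 change of 1 or more was also required, 1 with the methods' t-test after adjustment (1236 before), 317 with slide as a fixed block and 512 within slide 2, and ran from 1103 to 1837 with each mouse left out. Scaling to the 75th percentile called 1443 genes of which 78.1% were higher in LKO livers, against 58.9% under quantile normalization. Crp and Saa3 kept their sign under all 26 alternatives that gave a log2 fold change. With slide as a fixed block and within slide 2, which share one estimate, the difference reversed to -0.0072 for Saa2, 0.051 for Saa4, -0.077 for Orm1, -0.099 for Orm2, 0.099 for Hp and -0.31 for Apcs, and the cause was not tested. Leaving out single mice gave ranges of -0.12 to 0.19 for Saa1, -0.0030 to 0.36 for Saa2, -0.053 to 0.036 for Hp, -0.051 to 0.37 for Lcn2 and -0.032 to 0.18 for Apcs, and, with no change of sign, 0.021 to 0.22 for Saa3, -0.36 to -0.0074 for Saa4, 0.035 to 0.12 for Orm1, 0.0043 to 0.11 for Orm2 and -0.21 to -0.12 for Crp. Pairs of genes past the adjusted threshold, 5, became 11 with scaling to the 75th percentile, 0 without the 2 mice farthest from the median and 0 with slide and genotype means removed, and 2 to 3 without Floxed mouse 1 or LKO mouse 5. Saa4 with Crp also missed it under normexp (r = 0.72, permutation adjusted p = 0.0713). With the replicate number as a block, 1428 genes and none of the 10 were called. The genotypes are littermates and mice of the same number have consecutive identifiers in the titles, but no label says that a number marks a litter. Same-numbered mice had correlations of -0.24 to 0.32 in their deviations, 3 of 6 above 0.1, and 1 mouse was closest to its own number. The filter on dim probes left out 7 of 10 cytokine genes, and 6 were tested when 6 arrays above background were enough.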
